A study of Mus musculus with 12 samples.

Results

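The genes described here are the mouse cytochrome P450 genes of families 1 to 3, the enzymes of the liver that oxidise drugs, other foreign compounds and many steroids and fatty acids. They were chosen by name from the table of 56441 genes: the letters Cyp, a family number of 1, 2 or 3, a subfamily letter and a gene number, with pseudogene symbols left out. The pattern matched 60 symbols, and the 45 selected on their counts, at least 50 summed over the 12 libraries, were kept. That sum and the name alone chose the members. The kept genes with the lowest sums were Cyp2d12 with 53 counts, Cyp2d11 with 68 and Cyp3a44 with 86, and the highest sum among the 15 left out was 38 counts for Cyp2t4. Of the 45 genes, 43 passed the filter on low counts and were tested among 15228 genes, and Cyp2d12 and Cyp3a44 did not pass. By subfamily there were 2 Cyp1a, 1 Cyp1b, 4 Cyp2a, 3 Cyp2b, 13 Cyp2c, 8 Cyp2d, 3 Cyp2j and 5 Cyp3a genes, and 1 gene each of Cyp2e, Cyp2f, Cyp2g, Cyp2r, Cyp2s and Cyp2u.

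A P450 enzyme sits in the membrane of the endoplasmic reticulum, binds haem, and receives electrons from P450 oxidoreductase. Several members are switched on by receptors that sense foreign compounds: the aryl hydrocarbon receptor AHR drives Cyp1 genes, and the nuclear receptors CAR and PXR drive Cyp2b, Cyp2c and Cyp3a genes. In mouse liver some Cyp2 genes are also expressed far more in females, such as Cyp2b9, Cyp2b13 and Cyp2a4, or in males, such as Cyp2d9, under the control of the growth hormone pattern.

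The data are RNA-seq counts from 12 libraries of mouse liver, 3 in each of 4 groups, from a study of fumarate hydratase (FH), the enzyme that turns fumarate into malate, in fatty liver. C57BL/6 mice fasted for 24 h made up one model. Leptin-deficient ob/ob mice fed a high-fat diet made up the other. In each model a group had received AAV8-FH and a group AAV8-vector by tail vein at 6 to 8 weeks of age, 1 month earlier, so the vector groups carry a virus as well. The design text calls the virus liver-specific, and no promoter or species of the FH sequence is named in the sources used here. The models differ in strain, feeding and diet together, and what each of these contributes cannot be told apart. The labels give liver as tissue, hepatocyte as cell type and primary hepatocytes in a cell line field. They do not state that the 3 libraries of a group were separate animals, so p-values measure only how these libraries vary. Libraries of the same group differed by more than counting error (chi-square per degree of freedom 22.24 to 120.3 over pairs of libraries). The source of that variation was not tested.

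The promoter windows of 2 pairs of related genes are shown to compare the sequence around their starts. Most of each window lies before the gene start, so it does not bear on how reads were assigned. The window runs from 250 bases before to 50 bases after the start of the gene (RefSeq, GRCm38.p6, plus strand, 5′ to 3′), and capitals mark the bases that differ between the members of a pair or have no partner in the other window. Cyp2a4 lies at chr7:26306942-26307241 and Cyp2a5 at chr7:26835089-26835388. Cyp2b9 lies at chr7:26173159-26173458 and Cyp2b13 at chr7:26061245-26061544.
Cyp2a4: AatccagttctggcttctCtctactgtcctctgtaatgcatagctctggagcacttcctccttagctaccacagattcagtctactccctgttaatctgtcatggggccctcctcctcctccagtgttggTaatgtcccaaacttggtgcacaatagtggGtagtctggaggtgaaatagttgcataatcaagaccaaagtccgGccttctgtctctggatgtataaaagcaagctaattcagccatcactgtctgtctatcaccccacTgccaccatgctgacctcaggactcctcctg
Cyp2a5: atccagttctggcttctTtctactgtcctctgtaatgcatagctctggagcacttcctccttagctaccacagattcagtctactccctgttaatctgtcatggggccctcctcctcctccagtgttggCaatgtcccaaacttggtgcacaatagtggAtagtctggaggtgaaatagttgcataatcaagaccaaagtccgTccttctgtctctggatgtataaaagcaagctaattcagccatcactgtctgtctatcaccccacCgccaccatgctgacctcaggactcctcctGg
Cyp2b9: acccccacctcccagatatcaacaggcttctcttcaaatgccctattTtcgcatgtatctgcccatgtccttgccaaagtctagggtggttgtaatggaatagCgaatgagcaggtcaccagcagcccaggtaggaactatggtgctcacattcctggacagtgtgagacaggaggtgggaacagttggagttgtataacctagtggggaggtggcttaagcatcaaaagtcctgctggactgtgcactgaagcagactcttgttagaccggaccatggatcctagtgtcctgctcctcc
Cyp2b13: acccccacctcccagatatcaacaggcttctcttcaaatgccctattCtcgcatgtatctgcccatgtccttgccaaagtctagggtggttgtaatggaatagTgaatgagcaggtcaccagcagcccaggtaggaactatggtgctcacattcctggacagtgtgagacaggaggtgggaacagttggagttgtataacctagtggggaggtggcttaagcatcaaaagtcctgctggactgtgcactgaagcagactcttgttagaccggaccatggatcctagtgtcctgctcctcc

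The Cyp2a4 and Cyp2a5 windows matched at 294 of 301 aligned positions (97.7%) and differed by 5 substitutions and an offset of 1 base. The Cyp2b9 and Cyp2b13 windows matched at 298 of 300 positions (99.3%) and differed by 2 substitutions. Over the whole transcript the identity was lower, 84.8% for Cyp2a4 with Cyp2a5 and 89.3% for Cyp2b9 with Cyp2b13. Of all stretches of 50 bases in the Cyp2a5 transcript (GENCODE M21), 40.8% also occurred in another gene, against 38.0% for Cyp2a4, 11.2% for Cyp2b9, 27.3% for Cyp2b13, 54.8% for Cyp2c69 and 72.1% for Cyp2c40. The sources used here do not say how reads from such stretches were assigned, so the split of counts between these genes is uncertain. Cyp2c23, Cyp2c70, Cyp2f2, Cyp2j9, Cyp2r1 and Cyp3a13 shared no stretch of that length.

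The libraries held 12231828 to 25873379 counts. Fh1, the mouse gene of FH, stood at 238 to 408 CPM (counts scaled to a common library size, 1e+06 counts, on totals adjusted by edgeR's TMM method) with the vector and 721 to 926 with FH in the fasted livers, and at 106 to 142 and 616 to 802 in the ob/ob livers. All 6 hepatocyte markers and all markers of endothelium, macrophages, stellate cells, bile ducts and lymphocytes had counts in every group. The summed hepatocyte markers were higher with FH, going from 42933 to 62242 CPM up to 136579 to 146917 in the fasted and from 42849 to 54179 up to 126530 to 154760 in the ob/ob livers. Alb made up most of these sums, at 30113 to 45144 CPM in the fasted vector and 109494 to 122644 in the fasted FH libraries. Of the 6 genes, 5 were called higher in each model (edgeR, adjusted p under 0.05). On plain library totals 2 were called higher in the fasted and 1 in the ob/ob livers. The 6 endothelial markers went from 207 to 248 CPM down to 98.5 to 111 in the fasted livers and from 139 to 184 up to 199 to 246 in the ob/ob livers. In bulk RNA, fewer cells of a type and less RNA per cell cannot be told apart, and the part of these shifts in the P450 results was not tested.

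Other facts of the libraries touch the ob/ob results. The 3 ob/ob FH libraries carried Xist, an RNA of the inactive X chromosome, at 116 to 234 CPM and had 0 counts of the Y-linked genes Ddx3y, Eif2s3y, Kdm5d and Uty. In the other 9 libraries Xist was at 0.0707 to 1.6 CPM and the Y-linked genes were present, so in the ob/ob model sex and FH cannot be told apart. The labels name no sex. The ob/ob vector library of replicate 2 stood apart from the other 2 of its group: Hsd3b5, a male-biased steroid enzyme, was at 334 CPM in it and at 0.058 and 0 in the others. Values without this library are given for most of the genes described below whose call it changes or whose value it moves most. Scaling by TMM also matters for every FH comparison: on plain library totals the median gene shifted by -0.67 (log2) in the fasted and -0.62 in the ob/ob comparison, and values on that scale are given for most of the genes described below where they change a call or a direction.

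Per kilobase of exon (lengths from GENCODE M21 for 44 of the 45 genes), Cyp2e1 had the highest level in each of the 4 groups. Cyp2e1 oxidises ethanol, acetone and paracetamol, and its mean was 3262 CPM per kb in the fasted vector libraries. Cyp3a11, the main drug-oxidising Cyp3a enzyme of mouse liver, followed at 1442 and Cyp3a25 at 1006, and the next, Cyp2d9, Cyp2d10 and Cyp2d26, lay at 379, 312 and 303. In the ob/ob vector libraries the same measure gave 1828 for Cyp2e1, 614 for Cyp3a11 and 428 for Cyp3a25. The length used joins all annotated exons of a gene, 5093 bases for Cyp3a11 and 2158 for Cyp2e1. Their transcripts measured 2344 and 1833 bases, so the gap between these genes depends on the length used. In plain CPM the fasted vector means were 7346 for Cyp3a11 and 7040 for Cyp2e1. At the low end, Cyp1a1, Cyp1b1, Cyp2d11, Cyp2d12, Cyp2g1, Cyp2s1 and Cyp3a44 stayed under 1 CPM per kb in every group.

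Summed over the 45 genes, P450 counts made up 2.54% to 2.78% of all counts in fasted livers with the vector and 3.29% to 4.2% in those with FH. In the ob/ob livers the share was 1.72% to 1.98% with the vector and 2.08% to 2.69% with FH. The FH libraries were above the vector libraries in each model without overlap, and this share does not depend on the scaling. Subfamilies differed: in the fasted livers Cyp2e1 alone went from 0.787% to 0.876% up to 1.44% to 1.96%, while the Cyp3a genes went from 1.03% to 1.26% down to 0.856% to 0.971%.

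**Figure D1:**
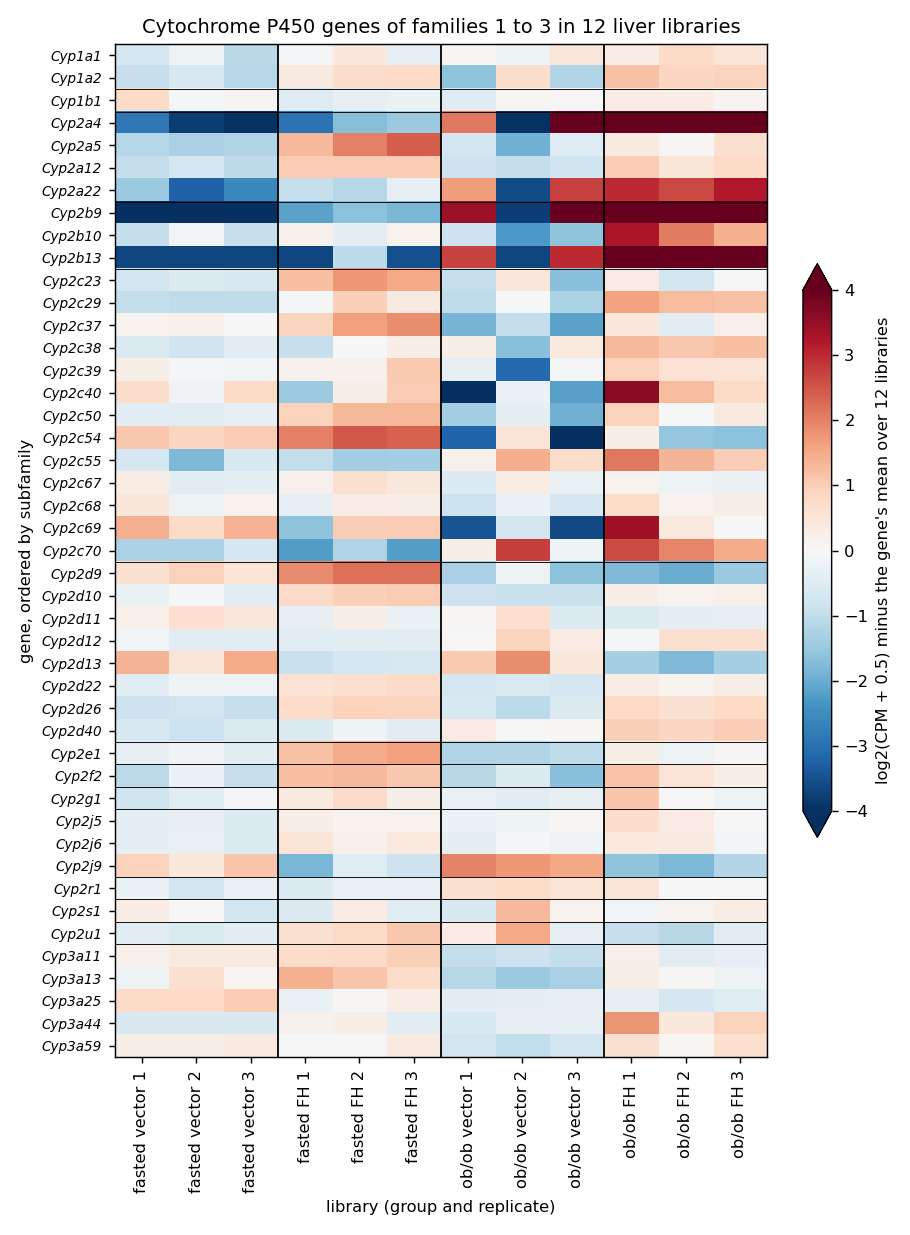
Levels of the 45 P450 genes in the 12 libraries. Rows are genes ordered by subfamily, columns are libraries by group and replicate, and colour is log2(CPM + 0.5) minus the gene's mean over the 12 libraries, with values past 4 in either direction at the end of the scale. Many rows are redder in the FH columns, and the ob/ob vector column of replicate 2 departs from its neighbours for Cyp2a4, Cyp2a22, Cyp2b9 and Cyp2b13.

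FH against vector in the fasted livers asks what added fumarate hydratase does in a lean liver filled with fat by fasting. Of the 43 tested P450 genes, 20 were higher and 4 lower with FH (edgeR, Benjamini-Hochberg adjusted p under 0.05). Over all genes tested, 55% were called, 27.4% higher and 27.6% lower. The median log2 fold change was 0.90 over the tested P450 genes and -0.04 over all genes. On library totals the split was 11 higher and 9 lower, and 15 of the 24 calls remained. When each library was left out in turn, 20 of the 24 calls held in all 6 fits.

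Cyp2e1 stood at 6895, 7806 and 6418 CPM in the fasted vector libraries of replicates 1 to 3 and at 19445, 24338 and 27223 in the FH libraries. The lowest FH library was well above the highest vector library, which made the level 3.36-fold higher (log2 1.75 with an SE of 0.21, adjusted p = 1.66e-05). Cyp2f2, which activates naphthalene and styrene, went from 194, 345 and 211 CPM to 937, 988 and 850, 3.7-fold more (log2 1.89 with an SE of 0.30, adjusted p = 0.000167). The FH libraries lay close together, and the vector libraries were all lower, with replicate 2 the highest of them.

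Apart from Cyp2b9, the largest called rise was in the Cyp2a subfamily. Cyp2a5, which oxidises coumarin and nicotine, went from 213, 190 and 203 CPM to 1154, 1889 and 2500, 9.14-fold (log2 3.19, SE 0.34, adjusted p = 9.08e-06). Its groups did not overlap, and the FH libraries spread more than the vector libraries. Cyp2a12, a steroid hydroxylase, rose 3.77-fold from 255, 302 and 238 CPM to 989, 1005 and 1005 (log2 1.91, SE 0.16, adjusted p = 2.05e-06). Cyp2a4, whose promoter window nearly equals that of Cyp2a5, had 8, 1 and 0 counts in the vector and 7, 28 and 43 in the FH libraries. The ratio of the Cyp2a4 counts was 8.32 (95% exact interval 4.17 to 18.9, counting error only), and the change did not pass the test (adjusted p = 0.278).

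The Cyp2b genes, which include the classic CAR target Cyp2b10, were close to silent in the fasted livers. Cyp2b9 had 3, 2 and 2 counts with the vector and 49, 77 and 83 with FH, a ratio of 28.7 (95% exact interval 13.7 to 72.2, counting error only). That call (adjusted p = 0.0388) was lost when any of the 6 libraries was left out, with adjusted p between 0.0523 and 0.0996, and on library totals (adjusted p = 0.0722). Cyp2b13 had 0 counts in all 3 vector libraries and 0, 39 and 1 with FH, so a single library carried it. Against 3 counts per library the FH mean was at least 4.5-fold higher, and the test was not passed (adjusted p = 0.258). Cyp2b10 was at 1.42, 2.93 and 1.46 CPM with the vector and 3.68, 2.41 and 3.59 with FH, with overlapping groups (log2 0.72, adjusted p = 0.276).

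In the Cyp2c subfamily 4 of 13 genes rose and none fell, while 27.4% of all genes tested rose and 27.6% fell. Many Cyp2c enzymes turn arachidonic and linoleic acid into epoxides, among them Cyp2c23, which is also listed as Cyp2c44. Cyp2c23 went from 91.0, 106 and 100 CPM to 362, 517 and 445, 4.46-fold (log2 2.16, SE 0.42, adjusted p = 0.00075). Cyp2c29 went from 293, 275 and 275 CPM to 531, 1078 and 721 (log2 1.47, adjusted p = 0.00128). Cyp2c37 went from 364, 374 and 328 CPM to 611, 1035 and 1196 (log2 1.41, adjusted p = 0.00188). Each of these had all FH libraries above all vector libraries. Cyp2c50, which shares 30.7% of its 50-base stretches with other genes, was the fourth (log2 1.61, adjusted p = 0.00113). Cyp2c40 (log2 -0.24) and Cyp2c69 (log2 -0.71) did not pass, and for each the fasted FH library of replicate 1 was the lowest, at 5.23 and 2.33 CPM.

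Among the 7 tested Cyp2d genes, relatives of the human drug enzyme CYP2D6, 4 rose and 1 fell (27.4% and 27.6% of all genes). Cyp2d26 went from 536, 582 and 509 CPM to 1610, 1826 and 1786, 3.21-fold (log2 1.68, SE 0.16, adjusted p = 3.82e-06). Cyp2d10 rose 2.26-fold (from 515 ± 66.8 CPM to 1161 ± 99.4, SD, n = 3, adjusted p = 1.72e-05), and Cyp2d22 rose 1.93-fold (adjusted p = 3.07e-05, but 0.0585 on library totals). Cyp2d9, a testosterone hydroxylase of male liver, went from 955, 1170 and 901 CPM to 2312, 2854 and 2841 (log2 1.40, adjusted p = 0.00128). In all of them the groups stood apart. Cyp2d13 moved the other way, from 370, 206 and 404 CPM to 76.8, 87.0 and 91.6, 3.83-fold less (log2 -1.94 with an SE of 0.32, adjusted p = 0.000202). RefSeq lists Cyp2d13 as a transcribed pseudogene.

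Cyp1a2, an AHR target that is abundant in liver without inducers and oxidises caffeine, went from 93.8, 114 and 81.1 CPM to 229, 300 and 303 (log2 1.52, SE 0.44, adjusted p = 0.00965, but 0.0957 on library totals). Its groups did not overlap. Cyp1b1, another AHR target that is expressed mainly outside hepatocytes, stood at 2.34, 1.08 and 1.26 CPM with the vector and 0.637, 0.802 and 0.858 with FH, 2.01-fold lower (adjusted p = 0.0409). The call for Cyp1b1 was lost without fasted vector replicate 1 (log2 -0.65, adjusted p = 0.179) and without any of the 3 FH libraries (adjusted p 0.0692 to 0.116).

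In the Cyp3a subfamily the 2 most abundant genes moved in opposite directions. Cyp3a11 went from 6789, 7668 and 7581 CPM to 9964, 10053 and 11571, 1.43-fold more (log2 0.52 with an SE of 0.19, adjusted p = 0.0346). The groups did not overlap, but the call held only without fasted vector replicate 2 among the 6 fits that leave out a library, and the adjusted p reached 0.13 when fasted vector replicate 1 was left out. The direction of Cyp3a11 turned on library totals (log2 -0.16, adjusted p = 0.425). Cyp3a25, a close relative of Cyp3a59, fell from 1952, 2012 and 2321 CPM to 958, 1195 and 1440 (log2 -0.81 with an SE of 0.17, adjusted p = 0.00123). The fall was larger on library totals (log2 -1.49). Cyp3a13 rose from 180, 327 and 220 CPM to 559, 450 and 347 (log2 0.90, adjusted p = 0.00405, but 0.356 on library totals). Cyp3a59 did not pass (log2 -0.15), while on library totals it was called lower (log2 -0.82, adjusted p = 0.000546). Cyp3a44 had 0, 0 and 0 counts with the vector and 5, 6 and 1 with FH and was not tested.

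Of the single-gene subfamilies and Cyp2j, Cyp2u1, a hydroxylase of long-chain fatty acids, rose from 8.66, 7.90 and 8.77 CPM to 18.7, 20.9 and 25.9 (log2 1.37, SE 0.36, adjusted p = 0.00562, but 0.113 on library totals). Cyp2j5, which oxidises arachidonic acid, rose 1.51-fold from 452, 462 and 394 CPM to 700, 637 and 636 (adjusted p = 0.00943), and its direction turned on library totals (log2 -0.08). Cyp2j9 fell from 17.6, 12.3 and 20.1 CPM to 2.19, 6.29 and 4.82, 3.73-fold (log2 -1.90, SE 0.30, adjusted p = 0.000171). It shares no 50-base stretch with another gene. Cyp2g1, best known from the olfactory lining, stayed near the detection limit at 0.213 to 0.665 and 0.965 to 1.60 CPM, and its call (adjusted p = 0.0379) was lost without fasted vector replicate 1 or 2 or fasted FH replicate 1 or 2 (adjusted p 0.0608 to 0.138) and on library totals (adjusted p = 0.22). Cyp2r1, a vitamin D hydroxylase, did not pass (log2 0.07, and -0.61 with adjusted p = 0.00843 on library totals).

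**Figure D2:**
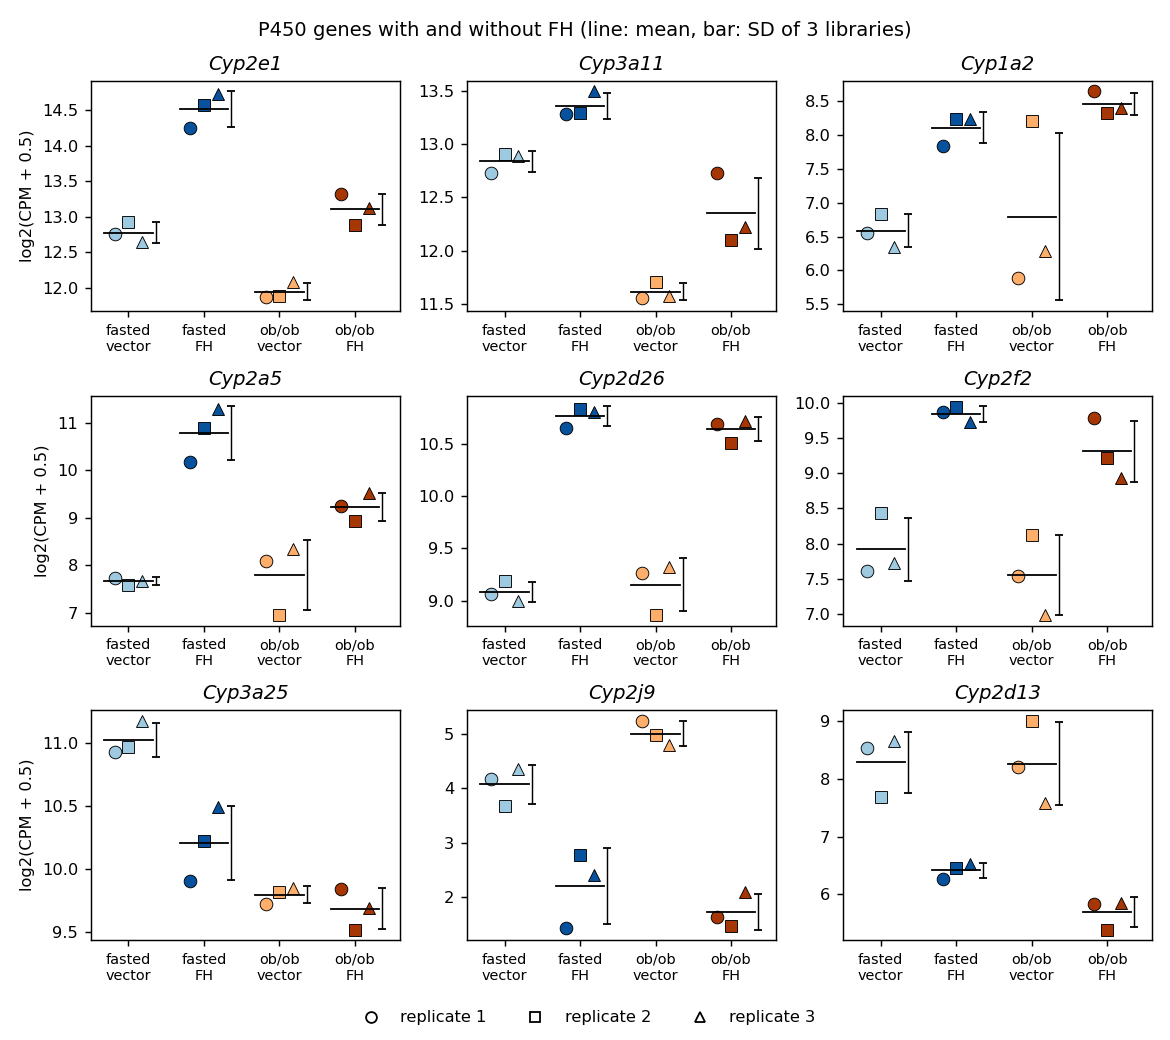
Levels of 9 P450 genes by library. The horizontal axis gives the 4 groups, the vertical axis log2(CPM + 0.5), each point is a library with its replicate as marker shape, the line is the mean and the bar the SD of 3 libraries. FH points lie above vector points in both models for Cyp2e1, Cyp3a11, Cyp2a5, Cyp2d26 and Cyp2f2 and below them for Cyp2j9 and Cyp2d13, while Cyp3a25 separates only in the fasted livers.

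FH against vector in the ob/ob livers puts the same question to a genetically obese liver. Here 24 of the 43 tested P450 genes were higher and 5 lower, and over all genes 53.7% were called, 25.8% higher and 27.9% lower. The median log2 fold change was 1.08 over the tested P450 genes and -0.01 over all genes. On library totals 14 were higher and 8 lower, and 19 of the 29 calls remained. With each library left out in turn, 23 of the 29 calls held in all 6 fits. All of these values carry the difference in sex-linked transcripts between the groups given above.

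Cyp2e1 stood at 3735, 3764 and 4338 CPM with the vector and 10186, 7525 and 8932 with FH, 2.25-fold (log2 1.17, SE 0.20, adjusted p = 0.000319). Cyp2f2 rose 3.33-fold (from 197 ± 77.4 CPM to 656 ± 205, SD, n = 3, adjusted p = 0.000319). Cyp2a12 rose 3.08-fold, from 276, 257 and 281 CPM to 979, 683 and 848 (adjusted p = 3.5e-06). Cyp2d26 rose 2.78-fold, from 616, 465 and 641 CPM to 1653, 1458 and 1683 (adjusted p = 8.12e-06). For each of these 4 genes every FH library lay above every vector library, as it did in the fasted livers. Cyp2a5 went from 271, 123 and 325 CPM to 604, 486 and 727 (log2 1.34, SE 0.32, adjusted p = 0.00337, but 0.0642 on library totals), again with no overlap.

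Cyp2b10, with all libraries, had the largest log2 rise of the tested P450 genes in this comparison. Without ob/ob vector replicate 2 it stood at 4.11, below Cyp2c69 (7.17) and Cyp2c40 (5.68). Cyp2b10 went from 1.62, 0.263 and 0.733 CPM to 35.5, 15.2 and 9.53, 23.2-fold (log2 4.53, SE 0.57, adjusted p = 2.73e-05). The lowest FH library was above the highest vector library, although the FH libraries themselves spread widely. The log2 value was 5.33 without ob/ob vector replicate 1 and 3.82 without ob/ob FH replicate 1, and the call held in both. Cyp2b13 went from 41.0, 0 and 50.5 CPM to 445, 193 and 460 (log2 3.59, SE 1.13, adjusted p = 0.0183). DESeq2 did not call Cyp2b13 (adjusted p = 0.226), and the log2 value was 3.01 (adjusted p = 0.000545) without ob/ob vector replicate 2 and 4.18 without replicate 3.

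The Cyp2c subfamily had 8 of 13 genes called, all higher, while 25.8% of all genes tested were higher and 27.9% lower. Cyp2c29 went from 279, 563 and 234 CPM to 1735, 1353 and 1269, 4.05-fold (log2 2.02, SE 0.31, adjusted p = 0.000137). Cyp2c37 went from 89.4, 171 and 73.8 CPM to 439, 246 and 379, 3.18-fold (log2 1.67, adjusted p = 0.000652). In each of them the vector library of replicate 2 was the highest of its group and still below the FH libraries. Cyp2c40 went from 0.290, 13.0 and 2.98 CPM to 194, 37.7 and 26.6 (log2 3.97, SE 0.97, adjusted p = 0.00357), and Cyp2c69 from 0.290, 4.63 and 0.209 CPM to 89.9, 10.9 and 8.26 (log2 4.38, SE 1.08, adjusted p = 0.00397). These 2 transcripts are 89.2% identical, and in both the FH library of replicate 1 was far above the others. Without that library the log2 values were 2.54 for Cyp2c40 and 2.45 for Cyp2c69, and without ob/ob vector replicate 2 they were 5.68 and 7.17, all called. Cyp2c23 did not pass (log2 0.36, adjusted p = 0.468), and without ob/ob vector replicate 2 it did (log2 1.20, adjusted p = 0.00184). The same held for Cyp2c54 (log2 0.20, and 2.99 without that library, adjusted p = 0.000143), Cyp2c70 (0.53, and 2.05, adjusted p = 0.000165) and Cyp2c55 (0.70, and 1.16, adjusted p = 0.022).

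Cyp1a2 also moved with that vector library. It stood at 58.5, 294 and 77.8 CPM with the vector and 400, 322 and 337 with FH, so all FH libraries were higher, the replicate 2 vector library only narrowly lower (log2 1.30, SE 0.44, adjusted p = 0.022, but 0.189 on library totals). Without ob/ob vector replicate 2 the log2 value was 2.39 (adjusted p = 5.55e-07). Without ob/ob vector replicate 1, vector replicate 3 or FH replicate 1 the call was lost (adjusted p 0.0616, 0.0682 and 0.0622).

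In Cyp2d the genes that rose with FH in the fasted livers did not all do so here. Cyp2d10 rose 2.11-fold (adjusted p = 3.12e-05) and Cyp2d22 1.83-fold (adjusted p = 5.71e-05, but 0.0881 on library totals). Cyp2d9 fell, from 255, 537 and 201 CPM to 182, 155 and 224 (log2 -0.82, SE 0.29, adjusted p = 0.0288). Its groups overlapped, and the call was lost without ob/ob vector replicate 2 (log2 -0.27, adjusted p = 0.252), FH replicate 1 (adjusted p = 0.0695) or FH replicate 2 (adjusted p = 0.11). Cyp2d13 fell from 294, 516 and 192 CPM to 56.6, 41.4 and 56.9, 6.47-fold (log2 -2.69, SE 0.33, adjusted p = 2.09e-05).

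Cyp3a11 rose from 3008, 3330 and 3044 CPM to 6786, 4396 and 4776 (log2 0.77, SE 0.19, adjusted p = 0.00445, but 0.509 on library totals). Cyp3a13 rose 2.51-fold, from 96.0, 73.5 and 85.0 CPM to 246, 215 and 179 (adjusted p = 0.000292). Cyp3a59 rose 2.47-fold, from 50.8, 44.3 and 50.9 CPM to 133, 91.4 and 136 (adjusted p = 2.09e-05). None of these 3 had overlapping groups. Cyp3a25 was at 844, 904 and 924 CPM with the vector and 919, 734 and 828 with FH, and it did not pass (log2 -0.11, adjusted p = 0.611), while on library totals it was called lower (log2 -0.73, adjusted p = 0.00143). Cyp3a44 had 0, 2 and 2 counts with the vector and 40, 10 and 20 with FH, a ratio of 16.2 (95% exact interval 6.05 to 61.1, counting error only), without a test.

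Cyp2j9 had the largest fall of the tested P450 genes in this comparison. It went from 37.5, 31.3 and 27.2 CPM to 2.59, 2.24 and 3.76, 11.1-fold (log2 -3.47, SE 0.31, adjusted p = 2.52e-06), with every FH library far below. Cyp2u1 fell from 15.4, 35.2 and 9.47 CPM to 6.06, 5.31 and 8.64 (log2 -1.58, SE 0.36, adjusted p = 0.00236), and by 0.88 on the log2 scale without ob/ob vector replicate 2 (adjusted p = 0.00514). Cyp2r1 fell 1.37-fold (adjusted p = 0.0384), and that call was lost in 5 of the 6 fits without a library (adjusted p up to 0.155) and held only without ob/ob FH replicate 1. Cyp2j5 rose 1.39-fold (adjusted p = 0.0295) with overlapping groups. Its call was lost without ob/ob vector replicate 1 or FH replicate 1 or 2 (adjusted p up to 0.203), and its direction turned on library totals (log2 -0.16). Cyp2g1 did not pass (log2 1.28, adjusted p = 0.0585).

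The P450 genes with a known sex difference were followed across all 12 libraries, because the ob/ob FH libraries carry no Y-linked counts. In fasted livers Cyp2b9 stood at 0.213, 0.120 and 0.133 CPM with the vector and at 3.47, 5.15 and 4.45 with FH. In the ob/ob vector libraries it stood at 193, 0.788 and 333 CPM and in the ob/ob FH libraries at 701, 686 and 658. The ob/ob vector library of replicate 2 was therefore near the fasted level, while the other 2 of its group were far above it, and all 3 carry Y-linked transcripts. Cyp2a4 followed the same order, with 32.8, 0 and 156 CPM in the ob/ob vector and 282, 181 and 188 in the ob/ob FH libraries, and so did Cyp2b13 (values above). In the comparison of FH with vector neither Cyp2b9 (log2 1.96, adjusted p = 0.0972) nor Cyp2a4 (log2 1.79, adjusted p = 0.154) passed with all libraries. Without ob/ob vector replicate 2 both did, at log2 1.39 (adjusted p = 4.71e-05) and 1.22 (adjusted p = 0.0422), and without ob/ob vector replicate 3 as well, at 2.83 (adjusted p = 0.0413) and 3.75 (adjusted p = 0.00869).

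Of 12 Cyp2 and Cyp3a genes listed as female-biased, 8 were tested, and 5 rose and none fell with FH in the ob/ob livers (median log2 2.77), against 2 and none in the fasted livers. Over all genes 25.8% and 27.4% rose, and the fasted calls, Cyp2b9 and Cyp2g1, were not stable when libraries were left out. Among the ob/ob calls, Cyp2c39 was lost in 3 of the 6 fits leaving out a library (adjusted p 0.053 to 0.0893). It was also lost on library totals (adjusted p = 0.192). DESeq2 did not call Cyp2c39 (adjusted p = 0.0669) or Cyp2b13 (adjusted p = 0.226) and gave no adjusted p for Cyp2c69. The difference between the counts of 5 and 2 was not tested. The listed male-biased genes were Cyp2d9 and Cyp2u1. Both rose with FH in the fasted and fell in the ob/ob livers. The ob/ob fall of Cyp2d9 was not called without ob/ob vector replicate 2 (log2 -0.27, adjusted p = 0.252). The fasted rise of Cyp2u1 was not called on library totals (adjusted p = 0.113). Outside these families, 6 of 8 male-biased liver genes fell with FH in the ob/ob livers and none rose (median log2 -3.50), among them the urinary protein gene Mup20 (log2 -4.59). Much of that list was high in ob/ob vector replicate 2: Cyp7b1 stood at 7.43, 119 and 9.63 CPM with the vector and at 21.8, 18.5 and 16.4 with FH, and Hsd3b5 was near 0 in the other vector and in the FH libraries. In the fasted livers Cyp4a12a rose and Mup20 fell. Of 7 tested female-biased genes, 6 rose in the ob/ob livers and 1 rose in the fasted livers. The ob/ob vector libraries all carry Y-linked transcripts, so these genes also varied among libraries alike in them. Sex and FH cannot be told apart in the ob/ob comparison, and the part of sex in these lists was not tested.

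**Figure D3:**
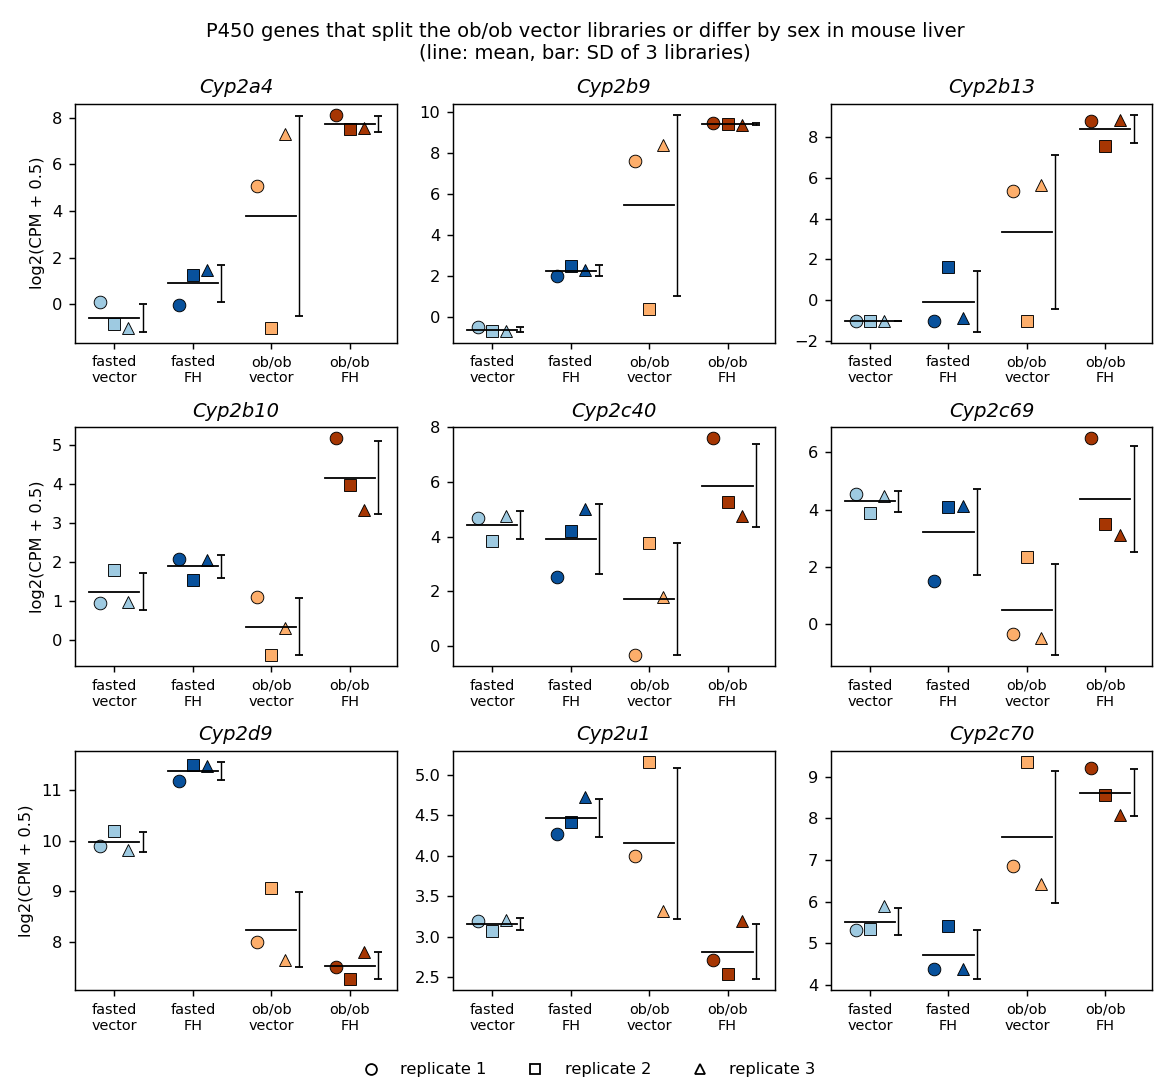
Levels of 9 P450 genes that differ by sex in mouse liver or that split the ob/ob vector libraries. The horizontal axis gives the 4 groups, the vertical axis log2(CPM + 0.5), each point is a library with its replicate as marker shape, the line is the mean and the bar the SD of 3 libraries. The square of the ob/ob vector group lies far from the circle and the triangle for Cyp2a4, Cyp2b9 and Cyp2b13, where it is low, and for Cyp2c70 and Cyp2u1, where it is high.

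The difference between the models was tested as the FH comparison in ob/ob livers minus that in fasted livers, each called an effect here. The ob/ob effect carries the difference in sex-linked transcripts, so a part of sex in these differences cannot be told apart from FH. Of the 43 tested P450 genes, 3 had a higher and 4 a lower effect in ob/ob, against 8.43% of all genes (4.77% higher and 3.66% lower). The genes with the higher effect were Cyp2b10 (difference of log2 fold changes 3.81, SE 0.79, adjusted p = 0.0117), Cyp2c69 (5.09, SE 1.41, adjusted p = 0.0412) and Cyp3a59 (1.45, SE 0.22, adjusted p = 0.00287). Those with the lower effect were Cyp2u1 (-2.96, SE 0.51, adjusted p = 0.00504), Cyp2d9 (-2.23, SE 0.42, adjusted p = 0.00733), Cyp2a5 (-1.86, SE 0.45, adjusted p = 0.0238) and Cyp2j9 (-1.58, SE 0.43, adjusted p = 0.0379). Cyp2d9 and Cyp2u1 changed direction between the models, whereas Cyp2a5 rose and Cyp2j9 fell in both. With each of the 12 libraries left out in turn, Cyp2b10, Cyp2d9, Cyp2u1 and Cyp3a59 kept their call.

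The other 3 calls were fragile. Cyp2a5 was lost without fasted vector replicate 2 or 3, fasted FH replicate 2 or 3, the first ob/ob vector replicate, or FH replicate 1 or 2 of that model, with adjusted p from 0.0544 to 0.0734. Cyp2j9 was lost in 8 of the 12 fits (adjusted p up to 0.11 without fasted FH replicate 2) and on library totals (adjusted p = 0.0606). Cyp2c69 was lost in 9 of the 12 fits, at a difference of 3.22 (adjusted p = 0.12) without ob/ob FH replicate 1, and reached 7.85 without ob/ob vector replicate 2. Cyp2b10 was at 4.59 without ob/ob vector replicate 1 and 3.16 without ob/ob FH replicate 1, and Cyp2u1 at -2.27 without ob/ob vector replicate 2. With no filter on low counts 8 genes were higher and 7 lower. For Cyp2e1 (difference -0.58, adjusted p = 0.224), Cyp3a11 (0.25, adjusted p = 0.625) and Cyp1a2 (-0.22, adjusted p = 0.863) no difference between the models was detected with 3 libraries a group. Without ob/ob vector replicate 2 the difference for Cyp1a2 was 0.85 and passed (adjusted p = 0.0396). Calls were also gained without that library for Cyp2b9 (-3.40, adjusted p = 0.000876), Cyp2c70 (2.78, adjusted p = 0.00166), Cyp2c40 (5.90, adjusted p = 0.00647), Cyp2c68 (1.21, adjusted p = 0.0232) and Cyp2c29 (1.03, adjusted p = 0.0472).

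**Figure D4:**
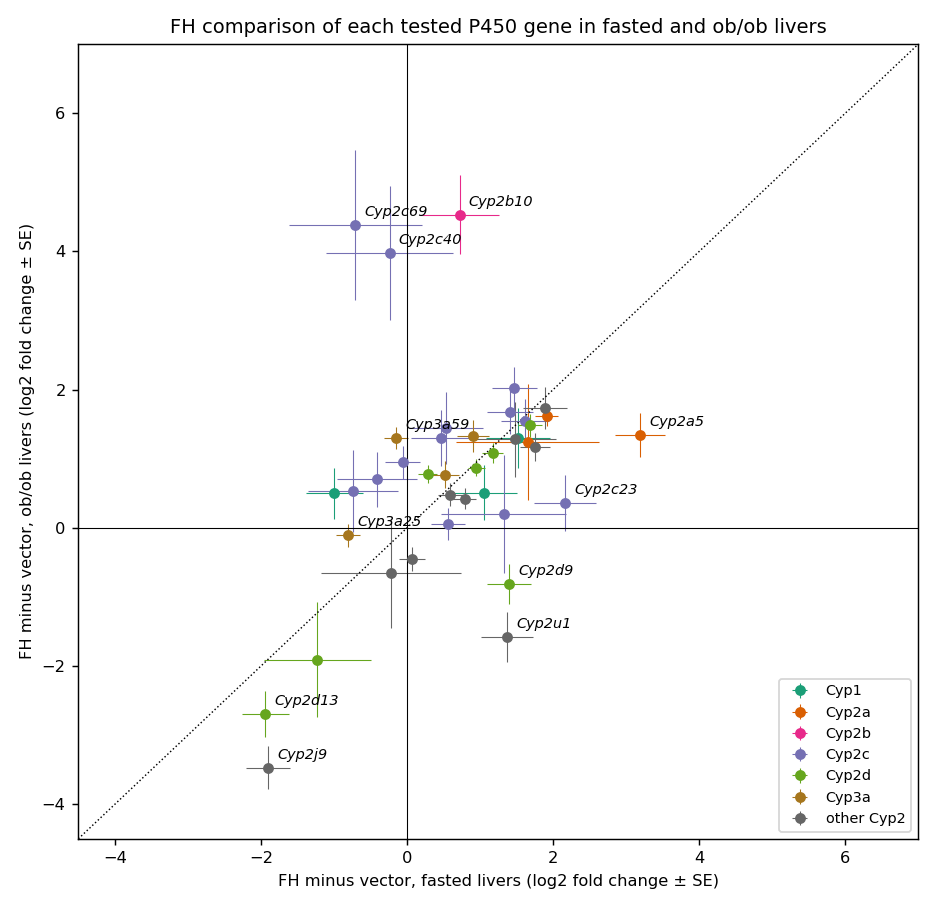
FH effect on P450 genes in the fasted livers (horizontal axis, log2 fold change) against that in the ob/ob livers (vertical axis, log2 fold change). Points are 40 tested genes coloured by subfamily, bars are SE and the dotted line marks equal effects. Cyp2a4, Cyp2b9 and Cyp2b13 are left out because they had few or no counts in the fasted vector libraries. Cyp2b10 and Cyp2c69 lie far above the dotted line, and Cyp2d9 and Cyp2u1 lie at positive values in the fasted and negative values in the ob/ob livers.

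The vector libraries of the ob/ob and the fasted livers compare the models without added FH. This comparison shares the fasted vector libraries with the first FH comparison and the ob/ob vector libraries with the second, so its values are not independent of them. Of the 43 tested P450 genes, 10 had higher and 10 had lower levels in ob/ob, against 17.5% of all genes (9.36% higher and 8.18% lower). With only the 2 groups compared in the fit, 6 were higher and 7 lower, and Cyp2a4, Cyp2a22, Cyp2b13, Cyp2d10, Cyp2d22, Cyp2e1 and Cyp2u1 were no longer called. Cyp2a4 and Cyp2b13 did not pass the filter on low counts in that fit. The median was 0.03 over the tested P450 genes and -0.00 over all genes.

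All 4 tested Cyp3a genes were lower in the ob/ob livers and held their calls in every fit that left out a library. Cyp3a11 was 2.35-fold lower (log2 -1.23, SE 0.19, adjusted p = 0.000986), Cyp3a25 2.35-fold (log2 -1.23, adjusted p = 0.000384), Cyp3a13 2.86-fold (log2 -1.51, adjusted p = 0.000712) and Cyp3a59 2.18-fold (log2 -1.12, adjusted p = 0.000441). The levels by library given above show no overlap for any of them. Cyp2e1 was 1.78-fold lower (log2 -0.84, adjusted p = 0.0122), and leaving out ob/ob vector replicate 1 ended that call (adjusted p = 0.0515). Cyp2d9 was 3.05-fold lower (log2 -1.61, adjusted p = 0.00263), Cyp2c37 3.19-fold (log2 -1.67, adjusted p = 0.00307) and Cyp2d10 1.54-fold (adjusted p = 0.00728).

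Of the 8 tested P450 genes listed as female-biased, 3 were higher and 1 was lower in the ob/ob vector group (median log2 -0.32). The lower one was Cyp2c69, and Cyp2c40 and Cyp2b10 had negative log2 values without passing. Cyp2b9, Cyp2a4 and Cyp2b13 were the higher ones in the ob/ob vector group. Replicate 2 had 0 counts of Cyp2a4 and Cyp2b13 and 15 of Cyp2b9, the latter still above the fasted libraries. The ratio of counts was 1148 for Cyp2b9 (95% exact interval 557 to 2855, counting error only, adjusted p = 0.00118) and 326 for Cyp2a4 (171 to 713, adjusted p = 0.00539). Cyp2b13 was at least 155-fold higher against 3 counts per fasted library (adjusted p = 0.0117). Cyp2c70, which makes the muricholic acids of mouse bile, rose from 39.7, 40.0 and 58.8 CPM to 115, 655 and 86.0 (log2 2.63, SE 0.63, adjusted p = 0.0118). The log2 value for Cyp2c70 fell to 1.12 (adjusted p = 0.0183) without ob/ob vector replicate 2, and the call was lost without fasted vector replicate 2 (adjusted p = 0.0518). Cyp2c55 rose from 1.49, 0.419 and 1.60 CPM to 3.19, 8.41 and 4.92 (log2 2.25, adjusted p = 0.00554), and Cyp2r1 rose 2.14-fold (adjusted p = 0.0011).

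The same library set several other values. Cyp2c69 was lower in the ob/ob vector libraries (log2 -3.49, adjusted p = 0.0395), at -6.26 without ob/ob vector replicate 2, and its call was lost without any other of the 6 libraries (adjusted p 0.0638 to 0.124). Cyp2c40 did not pass (log2 -1.99, adjusted p = 0.162) and passed without ob/ob vector replicate 2 (log2 -3.68, adjusted p = 0.0143). Cyp2c54, outside the rule for named genes and singled out after its values were seen, stood at 15.2, 208 and 7.28 CPM against 308, 259 and 291 in the fasted livers. Its log2 value was -1.90 (adjusted p = 0.159) with all libraries and -4.67 (adjusted p = 1.3e-05) without replicate 2. Cyp2u1 rose (log2 1.25, adjusted p = 0.0301) but at 0.56 did not pass without replicate 2 (adjusted p = 0.0998), nor without any of the 3 fasted vector libraries (adjusted p 0.0679 to 0.0919). Cyp2j9 rose 1.92-fold (adjusted p = 0.0324), a call lost without any of the fasted vector libraries or ob/ob vector replicate 1 (adjusted p 0.0502 to 0.122). Cyp1a2 (log2 0.57, adjusted p = 0.403) turned to -0.50 without replicate 2.

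**Figure D5:**
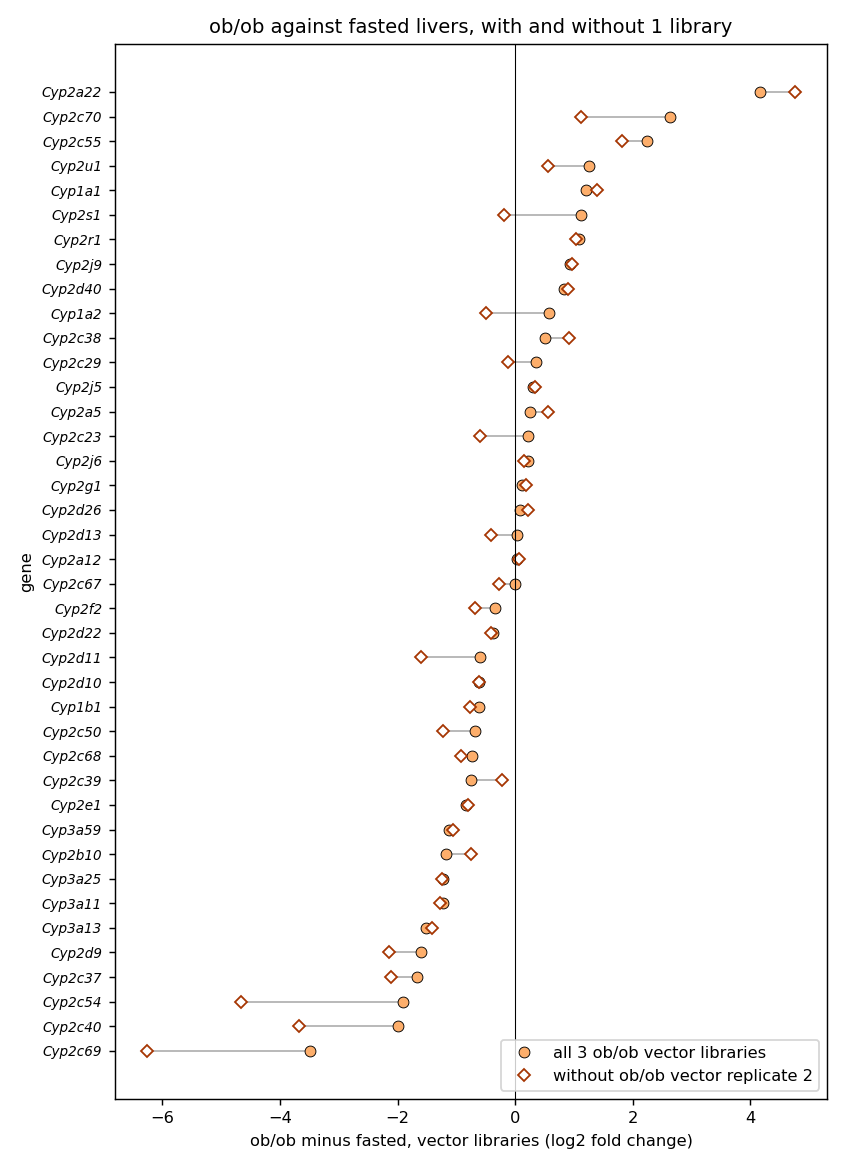
Difference between ob/ob and fasted vector libraries for 40 tested P450 genes, with all 3 ob/ob vector libraries (filled circles) and without replicate 2 (open diamonds). The horizontal axis is log2 fold change and rows are genes ordered by their value with all libraries, Cyp2a4, Cyp2b9 and Cyp2b13 left out as above. Most pairs of symbols lie close together, and Cyp2c54, Cyp2c69, Cyp2c40 and Cyp2c70 shift most.

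The partners of the P450 enzymes were examined next. The counts in this and the next lists stand beside 27.4% of all genes higher and 27.6% lower with FH in the fasted, and 25.8% and 27.9% in the ob/ob livers. Por, the P450 oxidoreductase that passes electrons to every microsomal P450, rose with FH in both models, from 295, 492 and 367 CPM to 1403, 1288 and 1490 in the fasted livers (log2 1.86, adjusted p = 1.65e-05) and from 98.9, 56.8 and 92.7 to 248, 243 and 263 in the ob/ob livers (log2 1.60, adjusted p = 4.82e-05). No groups overlapped. Between the vector groups Por was lower in the ob/ob livers (log2 -2.22, adjusted p = 3.84e-05). Of the 5 partner genes, 3 rose in the fasted and 2 in the ob/ob livers, and none fell in either. With library totals, 2 rose and 1 fell in the fasted and 1 rose and 3 fell in the ob/ob livers. Of 11 genes of haem synthesis and breakdown, 6 rose and 2 fell in the fasted and 5 rose and 2 fell in the ob/ob livers. Alad and Urod were among those that rose in both models and Ppox fell in both. On library totals 1 haem gene was higher and 5 were lower in each model.

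Among 14 tested regulators of P450 genes, 7 rose and none fell in the fasted and 4 rose and 2 fell in the ob/ob livers, while on library totals 2 rose and 4 fell, and 2 rose and 7 fell. Rxra, the partner of CAR and PXR, rose in both models (log2 1.64 and 1.04, adjusted p = 4.51e-06 and 0.000112), as did Cebpa (log2 1.37 and 1.19). Nr1i2, which encodes PXR, rose in the fasted livers (104 ± 4.53 CPM to 159 ± 14.1, SD, n = 3, log2 0.62, adjusted p = 0.000489), and its direction turned on library totals (log2 -0.06). In the ob/ob livers Nr1i2 did not pass (log2 0.16), and on library totals it was lower (log2 -0.46, adjusted p = 0.00395). Nr1i3, which encodes CAR, fell in the ob/ob livers (32.5 ± 2.80 to 23.4 ± 2.44 CPM, log2 -0.47, adjusted p = 0.0252). Omitting ob/ob vector replicate 2, vector replicate 3 or FH replicate 2 ended that call (adjusted p 0.0672, 0.0629 and 0.109). Nr1i3 did not pass in the fasted livers (log2 0.28), where it turned to -0.41 on library totals. Ahr did not pass in either model (log2 0.21 and 0.07). On library totals it was lower in both, at -0.47 (adjusted p = 0.0176) and -0.56 (adjusted p = 0.00703).

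Targets of these receptors outside the P450 genes were compared too. Of 12 CAR and PXR targets, 9 rose and 1 fell with FH in the fasted and 7 rose and 1 fell in the ob/ob livers. Their medians were 1.39 and 0.94. With library totals, 7 rose and 2 fell in the fasted and 4 rose and 3 fell in the ob/ob livers. Ugt1a1, the bilirubin glucuronosyltransferase, had log2 values of 2.36 and 1.97, and Sult1d1, named after its values were seen, fell in both (log2 -0.99 and -0.89). Of 3 tested AHR targets, Ugt1a6a fell in both models (log2 -1.20 and -2.25). Nqo1, a quinone reductase, rose in the ob/ob livers (log2 1.00, adjusted p = 0.0376) and had a log2 value of 0.87 (adjusted p = 0.0719) in the fasted livers. In the ob/ob vector libraries Nqo1 stood at 20.5, 5.1 and 25.4 CPM, so replicate 2 was far below its group. Tiparp fell in the ob/ob livers (log2 -0.94, adjusted p = 0.00363) and did not pass in the fasted livers (log2 -0.48). With library totals, none of the AHR targets rose and 2 fell in each model. Of 6 clock and PAR bZIP genes, 4 rose and 2 fell in the fasted livers and 1 rose in the ob/ob livers. With library totals, 1 rose and 2 fell in the fasted livers and none was called in the ob/ob livers. Dbp, a clock output factor, stood at 5.82, 2.39 and 4.39 CPM with the vector and 63.2, 45.8 and 48.0 with FH in the fasted livers (log2 3.65, adjusted p = 0.00358). In the ob/ob vector libraries Dbp was at 35.7, 0.420 and 36.7 CPM, so replicate 2 differed from its group here as well. Between the vector groups Dbp was called only without that library (log2 3.12, adjusted p = 3.04e-05) among the fits that leave out a library. The same held for its difference of FH effects (-4.38, adjusted p = 0.00029). The part of the clock in the P450 results was not tested.

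Promoter windows were found for 38 of the 45 genes in RefSeq (GRCm38.p6), and motifs were searched on both strands. TATAAA, the TATA box, occurred in 22 of 38 windows (57.9%) against 14.2% of 27025 windows of all genes, and in Cyp2a4 it starts 28 bases before the gene start. AGGTCA, to which nuclear receptors bind, occurred in 14 windows (36.8% against 16.0%). It lies 138 bases before the start in Cyp2b9 and Cyp2b13 and after the start in Cyp2a4 and Cyp2a5. GTTAAT, part of the HNF1 site, occurred in 6 windows (15.8% against 7.2%) and CCAAT in 18 (47.4% against 37.9%). The AHR core GCGTG occurred in 6 windows (15.8% against 32.5%), including those of Cyp1a1 and Cyp1b1. No window held the STAT5 motif TTCNNNGAA (8.47% of all windows) or the D-box TTATGTAA (0.955%). In each printed pair the same searched motifs were present, while in the fasted livers Cyp2a5 stood far above Cyp2a4. These windows are short, and a match is no evidence of binding.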

How the data were processed

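Whole-number counts per gene in 12 liver libraries were used as the authors deposited them. Libraries were made from total RNA with a stranded mRNA kit, per the labels' protocols, and aligned with STAR 2.7.11a to GRCm39, per the submitters' processing notes. The counting program, its annotation and strand setting were not given in the sources used here, so overlapping and near-identical genes are uncertain.

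Groups came from the sample labels. Totals were 12231828 to 25873379 counts per library, and intervals and floors cover counting error only. Genes passing edgeR's filterByExpr (minimum count 10, minimum total 15) were normalised by TMM and fitted with edgeR 4.0.16 (R 4.3.3) quasi-likelihood tests in 1 model of 4 groups, with Benjamini-Hochberg adjustment over 15228 genes and a threshold of 0.05. A gene at 0 counts in a whole group was bounded with 3 counts per library. The procedure was tested on simulated data. Alternatives were DESeq2 1.42.0, library totals, no filter, a replicate block, only the groups compared, and leaving out each library. Replicate numbers did not pair the samples.

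Named genes were a panel of which 22 are members, plus, per comparison, up to 5 called rises and 5 called falls without overlap and with at least 1 CPM on average, 31 members in all. Other P450 genes, such as Cyp2c39, Cyp2c50, Cyp2c54, Cyp2d22, Cyp2d11, Cyp2j6 and Cyp2a22, were named after their values were seen, as were Ppox, Alad and Urod in part. The members and lists were chosen with earlier results of these data known. Growth hormone signalling genes were also listed: of 8 tested, 1 rose and 1 fell with FH in the fasted and 1 rose and 3 fell in the ob/ob livers. With library totals none rose, and 4 fell in the fasted and 5 in the ob/ob livers.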

Additional observations from a re-analysis of the deposited data

Results flagged for a closer look

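A test of the difference between the FH effects (ob/ob minus fasted, log2) singled out 7 P450 genes. The difference was -1.86 for Cyp2a5, 3.81 for Cyp2b10, 5.09 for Cyp2c69, -2.23 for Cyp2d9, -1.58 for Cyp2j9, -2.96 for Cyp2u1 and 1.45 for Cyp3a59 (edgeR, adjusted p between 0.00287 and 0.0412). Cyp2d9, Cyp2u1, Cyp2b10 and Cyp3a59 kept the call in all 12 fits that left out a library, and Cyp2a5, Cyp2j9 and Cyp2c69 did not. The ob/ob FH libraries also differ from the other 9 in sex-linked transcripts, and sex and FH cannot be told apart in the ob/ob effect.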

How the results depend on the processing

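On library totals 11 P450 genes were higher and 9 lower with FH in the fasted and 14 higher and 8 lower in ob/ob. Among the genes named by rule, the direction turned there for Cyp2j5 (-0.08), Cyp2r1 (-0.61), Cyp3a11 (-0.16), Nr1i2 (-0.06), Nr1i3 (-0.41) and Ahr (-0.47) in the fasted and for Cyp1b1 (-0.12), Cyp2c23 (-0.27), Cyp2c70 (-0.11), Cyp2j5 (-0.16), Nr1i2 (-0.46) and Ahr (-0.56) in the ob/ob livers. With no filter 15 P450 genes differed between the FH effects, 8 higher and 7 lower. With only the vector groups in the fit 13 differed between them, 6 higher. DESeq2 gave no adjusted p for Cyp2c69 in the ob/ob livers. The replicate block gave 21, 29, 5 and 17 called P450 genes in the 4 comparisons and turned Dbp in the ob/ob livers (0.18) and the Cyp1a2 difference of effects (0.01).

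Leaving out a library gave 3 to 5 lower genes with FH in the ob/ob livers, and for the difference of effects 4 to 13 called, 2 to 8 higher and 2 to 5 lower. Among the same genes, leaving out Cyp2b13 where the fasted vector libraries enter, directions turned in the fasted livers for Cyp2c40 (-0.90 to 0.20) and Cyp2r1 (-0.07 to 0.16) and in the ob/ob livers for Ahr (-0.03 to 0.24) and Dbp (-0.79 to 0.30). For the difference of effects they turned for Cyp1a2 (-0.60 to 0.85), Cyp2a4 (-3.56 to 0.75), Cyp2f2 (-0.46 to 0.19), Cyp2g1 (-0.99 to 0.17), Cyp2j5 (-0.26 to 0.08) and Ahr (-0.30 to 0.02). Between the vector groups they turned for Cyp1a2 (-0.50 to 0.95), Cyp2a5 (-0.03 to 0.56), Cyp2a12 (-0.04 to 0.14), Cyp2c23 (-0.60 to 0.59), Cyp2c29 (-0.13 to 0.58), Cyp2d13 (-0.42 to 0.31), Cyp2d26 (-0.00 to 0.22) and Cyp2g1 (-0.19 to 0.54). The cause was not tested. Genes under about 1 CPM, such as Cyp1a1, Cyp2g1 and Cyp2s1, rest on few counts, and differences in them may not be detectable at this depth.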

Other observations

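Several Cyp2d pseudogene rows, left out by the naming rule and chosen here after their values were seen, were lower with FH, while Cyp2d41-ps did not pass in either model (log2 -0.76 and -0.35) and Cyp2d32-ps was not tested. Cyp2d36-ps stood at 13.2, 13.2 and 22.3 CPM in the fasted vector and 1.49, 1.40 and 2.14 in the fasted FH libraries (log2 -3.25, adjusted p = 4.23e-06). With ob/ob it moved from 19.1, 18 and 20.2 CPM to 0.622, 0.781 and 1.69 (log2 -4.19, adjusted p = 9.85e-07). Cyp2d37-ps (log2 -2.55 and -3.23) and Cyp2d38-ps (log2 -3.12 and -3.60) fell in both models too, as did Cyp2d13, while Cyp2d10 and Cyp2d26 rose in both. How reads were divided among these similar loci was not tested.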
